A study of Mus musculus with 6 samples.

Results

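Metallothioneins and antioxidant enzymes were examined in the gastrocnemius muscle of dysferlin-deficient mice. The set held 10 genes, taken by symbol, with earlier results of these data known: Mt1, Mt2, Hmox1, Nqo1, Gclc, Gclm, Txnrd1, Txnip, Sod2 and Gpx3. All 10 were found among the 57010 genes of the deposited count matrix, and all 10 were among the 15589 that passed the filter on low counts. The study compared 3 mutants with 3 controls, each library coming from 1 animal aged 3 months that had received no treatment. The mutants were of strain B6.A-Dysfprmd/GeneJ (BLAJ) and homozygous (Dysfprmd/Dysfprmd), a germline mutation that is present in every cell and not only in muscle fibres. The controls were labelled wild type and C57BL/6. Controls 1, 2 and 3 and mutant 3 were male, and mutants 1 and 2 were female, so no female control was measured. In fits with sex as a covariate, the difference between genotypes therefore rests on mutant 3 against the 3 controls.

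The libraries held 35042245 to 43733641 read pairs counted to genes, and 3 counts in 1 library correspond to 0.0686 to 0.0856 CPM (CPM, a count scaled to the library size after TMM normalisation, used for all levels below). Dysf, the mutated gene, stood at 72.3 to 145 CPM in the controls and 14.7 to 20.3 CPM in the mutants (log2 -2.64, SE 0.28, edgeR adjusted p = 0.0249). All 10 markers of the skeletal muscle fibre were detected in every library, with Acta1 between 27410 and 44900 CPM. Some facts go against the labels or set single libraries apart. Ifi202b and H2-Ea-ps, known to be absent or nearly so in C57BL/6 mice, stood at 1.02 to 7.69 and 2.37 to 3.44 CPM in the controls and at most 0.0264 CPM in the mutants, so strain and genotype cannot be told apart in what follows. Control 2 had 678 CPM of Sln against at most 14.6 CPM elsewhere. Control 3 and mutant 3 had 1424 and 2131 CPM of Col1a1 whereas the remaining 4 libraries had 69.1 to 226 CPM.

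Metallothioneins are small cysteine-rich proteins that bind zinc and copper, and their genes are switched on by zinc through the transcription factor MTF1 and by glucocorticoids. The other genes serve 3 linked systems that keep reactive oxygen and oxidised thiols in check: glutathione, thioredoxin, and the superoxide dismutases with the peroxidases that remove the peroxide they make. Many of them, among them Hmox1, Nqo1, Gclc, Gclm and Txnrd1, are textbook targets of NRF2 (Nfe2l2), a transcription factor held inactive by KEAP1 until oxidants or electrophiles release it. In skeletal muscle, Txnip is in addition known as a brake on glucose uptake whose transcription follows glucose supply.

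By the GENCODE M21 annotation Mt1, Mt2, Hmox1 and Nqo1 lie on chromosome 8, Gclm and Txnip on chromosome 3, Gclc on 9, Txnrd1 on 10, Gpx3 on 11 and Sod2 on 17. The promoters of the metallothionein genes and of Txnip are shown because they hold the letters of elements known for the control of these genes. The sequences are RefSeq's for build GRCm38.p6, an older build than the GRCm39 of the counts, and cover the 250 bases before the annotated start, on the strand of the gene. In the first pair, capitals mark the core of the metal response element, searched as TGCACNC and TGCGCNC on both strands. In the last, capitals mark the carbohydrate response element, searched on both strands as 2 copies of CACGNG with 5 bases between them.
Mt1, chr8:94178839-94179088, plus strand: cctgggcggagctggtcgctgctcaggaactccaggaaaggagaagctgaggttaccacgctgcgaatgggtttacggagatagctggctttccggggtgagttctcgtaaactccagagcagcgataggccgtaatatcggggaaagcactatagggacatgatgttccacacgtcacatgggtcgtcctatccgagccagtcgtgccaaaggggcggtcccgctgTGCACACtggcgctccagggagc
Mt2, chr8:94172368-94172617, plus strand: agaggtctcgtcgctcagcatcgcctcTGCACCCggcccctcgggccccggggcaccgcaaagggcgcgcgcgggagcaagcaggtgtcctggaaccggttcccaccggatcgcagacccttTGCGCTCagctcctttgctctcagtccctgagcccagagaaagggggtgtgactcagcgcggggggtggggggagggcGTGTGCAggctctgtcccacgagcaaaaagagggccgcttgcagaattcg
Txnip, chr3:96557707-96557956, plus strand: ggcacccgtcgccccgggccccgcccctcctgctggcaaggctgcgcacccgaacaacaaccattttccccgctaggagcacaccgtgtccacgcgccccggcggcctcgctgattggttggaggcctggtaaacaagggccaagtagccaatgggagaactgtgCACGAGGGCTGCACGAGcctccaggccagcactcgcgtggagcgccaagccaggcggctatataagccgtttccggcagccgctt

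Over the 300 bases searched, which run to 50 bases after the annotated start, the metal response core occurred 3 times at Mt1 and 4 times at Mt2. At Mt1 the matches began 23 bases before and 2 and 20 bases after the annotated start. At Mt2 they began 223, 128 and 50 bases before it and 4 bases after it. Where transcription began in this muscle was not measured, so the matches may lie elsewhere relative to the start in use. Matches beyond the 300 bases were not counted. Of 32851 promoters of that length, 25.7% held at least 1 match, 1.97% held 3 or more and 0.517% held 4 or more. Gclm also held 3 matches. The carbohydrate response element occurred once at Txnip, 85 bases before the start, and in 16 of the 32851 promoters (0.0487%). The antioxidant response core, searched as TGACNNNGC on both strands, was found once each at Mt2, Gclm and 1 of the 3 Txnrd1 starts, and in 12.4% of all promoters. The match at Mt2 overlapped an AP-1 site (TGACTCA, 5.2% of promoters). RefSeq promoters were matched for 8 of the 10 genes, and Hmox1 and Gclc, which had none, were not searched.

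None of the 10 genes differed between mutants and controls by edgeR's quasi-likelihood test at an adjusted p below 0.05, against 31 of all 15589 genes tested (0.199%). The smallest adjusted p among them was 0.709. At an unadjusted p below 0.05 there was 1 gene of the 10, Gclm, beside 6.94% of all genes. DESeq2 called none of the 10 and 1.18% of all genes, and limma-voom called none and 0.148% of all genes. At an unadjusted p below 0.05, DESeq2 had 1 of the 10, Nqo1 and not Gclm, and 1167 of all 15589 genes. At the same limit limma-voom had 0 of the 10 and 1013 of all 15589 genes. In the authors' deposited table, where 1.19% of genes passed, the smallest adjusted p of the 10 was 0.521, for Nqo1. Their median log2 fold change was -0.08, and that of all genes tested was -0.0015. Mutants and controls did not overlap in Gclc and Gclm, both lower in the mutants, as were 6.09% of all genes. None of the 10 had all mutants above all controls, which held for 5.97% of all genes. The precision differed widely between genes: the 95% interval of the log2 difference spanned -0.49 to 0.34 for Txnrd1 but -1.32 to 2.41 for Gpx3. In whole muscle, fewer cells of a type and less RNA per cell cannot be told apart.

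**Figure D1:**
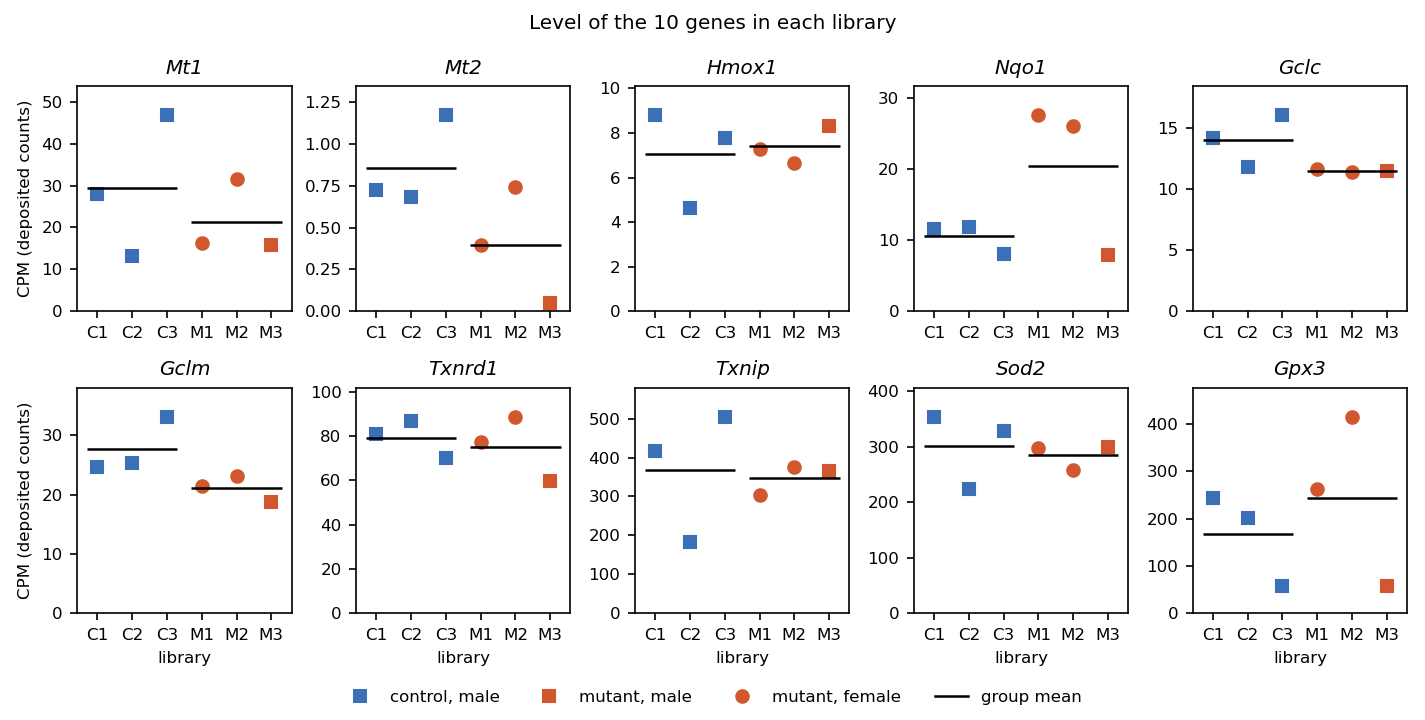
CPM of each of the 10 genes in each library (C1 to C3 controls, M1 to M3 mutants; squares male, circles female; line, group mean; axes start at 0). Nqo1 is high in the 2 female mutants, Gpx3 is low in C3 and M3, and the groups stand apart only in Gclc and Gclm.

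Mt1 (ENSMUSG00000031765) spread widely within both groups. It stood at 27.9, 13.3 and 46.7 CPM in controls 1, 2 and 3, compared with 16.3, 31.7 and 15.9 CPM in mutants 1, 2 and 3. Control 2 was the lowest and control 3 the highest library, and the mutants lay between them. Controls averaged 29.3 ± 16.8 CPM and mutants 21.3 ± 8.99 CPM (SD, n = 3), and the log2 difference was -0.46 (SE 0.48, edgeR adjusted p = 0.907). Without control 3 the difference was 0.05, so its sign rested on that library. With sex as a covariate it was -0.88 (SE 0.74, edgeR adjusted p = 0.909).

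Mt2 (ENSMUSG00000031762) appeared almost silent in the deposited matrix and was not. The matrix gave it 29, 30 and 46 read pairs in controls 1, 2 and 3 and 15, 27 and 2 in mutants 1, 2 and 3. Counted on its own strand, from the per-library files, it had 1113, 841 and 1486 read pairs in the controls and 790, 1707 and 440 in the mutants. The matrix thus kept 0.455% to 3.57% of the Mt2 read pairs, the lowest share in mutant 3 and the highest in control 2. In the GENCODE M21 annotation 73.5% of the Mt2 exon bases are also exon bases of Gm45774, a transcript of the opposite strand, and a read pair that overlaps both genes is ambiguous when strand is ignored. Counted against its own strand, Gm45774 had 438 to 1682 read pairs. On its own strand it had 12 to 93. Among the 15589 genes tested, 11 (0.0706%) kept under 10% of their strand-matched counts. The filter used the deposited counts, so genes that fell below it through such loss could not enter this number. For the neighbouring Mt1 the matrix held 100.1% to 100.7% of the strand-matched read pairs.

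**Figure D2:**
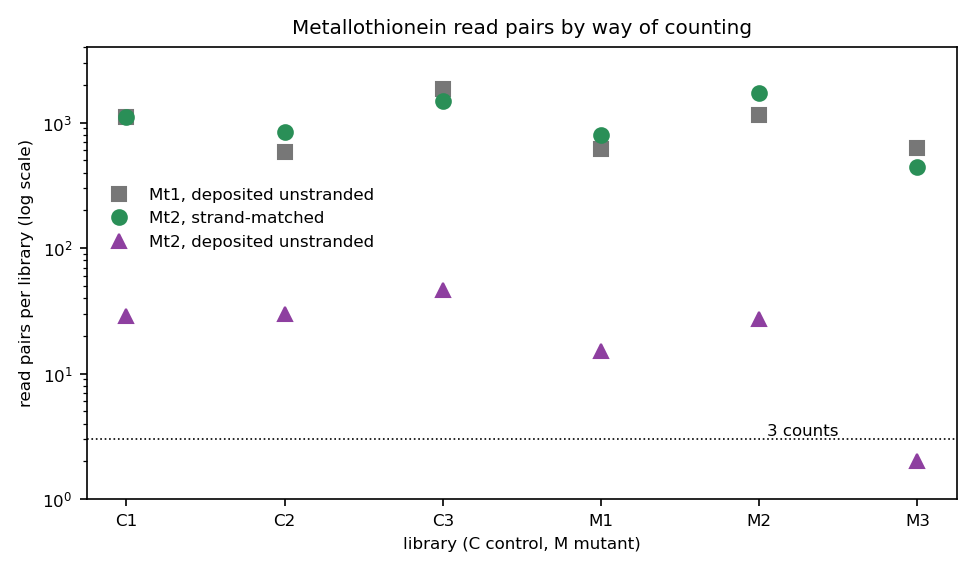
Read pairs per library (log scale) for Mt1 in the deposited matrix, Mt2 on its own strand and Mt2 in the deposited matrix; the dotted line marks 3 counts. Strand-matched Mt2 lies between 440 and 1707 read pairs, near Mt1, and deposited Mt2 between 2 and 46.

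The way of counting set the size of the Mt2 difference. With the deposited counts Mt2 averaged 0.858 ± 0.271 CPM across controls, against 0.397 ± 0.347 CPM across mutants (SD, n = 3), and the log2 difference was -1.11 (SE 0.72, edgeR adjusted p = 0.834). With strand-matched counts it measured 26.1, 17.9 and 35.4 CPM among controls against 19.6, 44.2 and 10.5 CPM among mutants, so mutants were both the highest and the lowest. The strand-matched log2 fold change was -0.10 (SE 0.51, 95% interval -1.32 to 1.13, edgeR adjusted p = 0.986, 28 genes or 0.18% being called in that fit). With sex as a covariate the deposited counts gave -3.99 (SE 0.86, edgeR adjusted p = 0.664). The strand-matched counts with sex gave -1.33 (SE 0.58, edgeR adjusted p = 0.865), a fit chosen after seeing the data. Both differences rest on mutant 3, the lowest and only male mutant, which had 2 Mt2 read pairs in the deposited matrix. Across the 6 libraries the strand-matched log2 levels of Mt1 and Mt2 had a Pearson r of 0.812, given as a description, since both genes were measured in the same animals and libraries. The genes most like Mt1 in the deposited matrix were Tnfsf10, 0610010F05Rik and Ssr3 (r = 0.986, 0.979 and 0.979 over 6 libraries), and those most like strand-matched Mt2 were Marf1, Sorbs2 and Gm14322 (r = 0.994, 0.994 and 0.989). Those most like Mt2 in the deposited matrix, where it rested on 2 to 46 counts, were Eps15, Anapc4 and Zfp639.

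Hmox1 (ENSMUSG00000005413), the inducible haem oxygenase that degrades haem to biliverdin, iron and carbon monoxide, showed no detectable difference between the groups. It measured 8.79, 4.65 and 7.76 CPM among controls against 7.30, 6.64 and 8.30 CPM among mutants. All 3 mutants lay within the range of the controls, whose lowest library was control 2. The log2 fold change was 0.07 (SE 0.26, 95% interval -0.53 to 0.67, edgeR adjusted p = 0.977), without control 2 it was -0.16, and with sex as a covariate it was 0.23 (SE 0.37). Macrophages are a known site of haem breakdown, and the summed level of all 12 macrophage markers ran from 132 to 215 CPM in controls and 157 to 273 CPM in mutants, none of the 12 being called. Their part in the Hmox1 levels was not tested. The genes most like Hmox1 were Timmdc1, Gm47863 and Mpv17l2 (r = 0.997, 0.99 and 0.985 over 6 libraries).

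Nqo1 (ENSMUSG00000003849), a quinone reductase and classical NRF2 target, had the largest positive difference of the 10 genes, and it sat in the 2 female mutants alone. It stood at 11.6, 11.9 and 8.14 CPM in the controls, at 27.6 and 26.1 CPM in mutants 1 and 2, both female, and at 7.86 CPM in the male mutant 3. The male mutant was thus the lowest of all 6 libraries. The log2 fold change over all animals was 0.96 (SE 0.45, edgeR adjusted p = 0.77). With sex as a covariate it was -0.42 (SE 0.27, edgeR adjusted p = 0.894), and in males only, 3 controls against 1 mutant, it was -0.42. In the fit with sex, the female minus male difference in Nqo1 was 1.77 on the log2 scale (SE 0.30, edgeR unadjusted p = 0.000919, adjusted p = 0.602), 4 genes (0.0257%) being called for sex. That estimate came from 2 female and 1 male mutants, and sex in the controls cannot be assessed. As an order of libraries, with gaps of any size, this was common: both female libraries lay above all 4 male libraries in 8.74% of the genes tested. They lay below them in 8.17%. How many genes had a gap as wide as that of Nqo1 was not counted. The genes most like Nqo1 were Ptp4a3, Klhl22 and Pfkm (r = 0.994, 0.988 and 0.988 over 6 libraries). Ptp4a3 measured 771 and 777 CPM in both female mutants against 428 to 514 CPM in the 4 males.

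The 2 subunits of glutamate-cysteine ligase, which makes the first and rate-limiting step of glutathione synthesis, were both lower in every mutant than in every control, by little. The catalytic subunit Gclc (ENSMUSG00000032350) measured 14.2, 11.8 and 16.1 CPM among controls against 11.6, 11.4 and 11.5 CPM among mutants. Its mutants were nearly identical, and control 2 lay just above them. The modifier subunit Gclm (ENSMUSG00000028124) measured 24.7, 25.2 and 33.1 CPM among controls against 21.4, 23.2 and 18.8 CPM among mutants. The gap between the lowest control and the highest mutant was thus small beside the spread within the controls. The log2 fold changes were -0.29 for Gclc (SE 0.15, edgeR adjusted p = 0.791) and -0.39 for Gclm (SE 0.16, edgeR adjusted p = 0.709), neither passing. Both kept a negative sign under each of the 18 alternatives, Gclc between -0.40 and -0.18 and Gclm between -0.56 and -0.17. Both were nearest 0 with replicate 3 of each group left out. The log2 levels of the pair had a Pearson r of 0.833 over the 6 libraries.

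Of the thioredoxin system, Txnrd1 (ENSMUSG00000020250), the cytosolic selenoenzyme that reduces thioredoxin, overlapped broadly between groups. It measured 80.8, 86.8 and 70.1 CPM among controls against 77.2, 88.6 and 59.7 CPM among mutants. The mutants held both the highest and the lowest library, and replicate 3 was the lowest of each group. The log2 fold change was -0.08 (SE 0.17, 95% interval -0.49 to 0.34, edgeR adjusted p = 0.966). With sex as a covariate it was -0.41 (SE 0.21, edgeR adjusted p = 0.882).

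Txnip (ENSMUSG00000038393), the thioredoxin-interacting protein that also lowers glucose uptake, had its extremes within the control group. It measured 418, 182 and 504 CPM among controls against 303, 376 and 365 CPM among mutants. Control 2 was the lowest and control 3 the highest library, with all mutants between. The log2 fold change was -0.08 (SE 0.35, edgeR adjusted p = 0.982), -0.41 without control 2 and 0.21 without control 3. The deposited matrix kept 63.5% to 67.0% of its strand-matched read pairs, and in GENCODE M21 19.4% of its exon bases are shared with Gm15441 on the opposite strand. With strand-matched counts the log2 fold change was -0.11 (SE 0.35). The genes most like Txnip were Tmem47, Ppp2r1b and Camk2a (r = 0.999, 0.985 and 0.984 over 6 libraries).

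Sod2 (ENSMUSG00000006818), the manganese superoxide dismutase of the mitochondrial matrix, measured 353, 223 and 329 CPM among controls against 298, 258 and 300 CPM among mutants. Control 2 was again the lowest library, and the mutants lay within the controls' range. The log2 fold change was -0.08 (SE 0.20, 95% interval -0.55 to 0.39, edgeR adjusted p = 0.967). Sod2 and Hmox1 had a Pearson r of 0.935 over the 6 libraries, the highest of the 45 pairs in the deposited matrix.

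Gpx3 (ENSMUSG00000018339), the secreted glutathione peroxidase of plasma, spread widely within both groups. It stood at 243, 200 and 57.9 CPM in controls 1, 2 and 3 and at 262, 414 and 56.4 CPM in mutants 1, 2 and 3. Replicate 3 was the low one in each group. In 4 of the 15589 genes (0.0257%) replicate 3 of both groups lay at least 3-fold below each of the other 4 libraries, a count made after the Gpx3 values were seen, and Gpx3 was the one of these with the highest level. The log2 fold change was 0.55 (SE 0.78, edgeR adjusted p = 0.94), 0.60 (SE 0.28) with replicate 3 of both groups left out, an alternative chosen after seeing the data, and -0.07 without mutant 2. With sex as a covariate it was -1.57 (SE 0.83, edgeR adjusted p = 0.882). The summed level of all 8 fibroblast markers was 3468 CPM in control 3 and 4326 CPM in mutant 3, against 739 to 1109 CPM in the other 4 libraries. Col1a1 and Col3a1 made up most of the sum in control 3 and mutant 3 but not in the other 4. The part of the 8 markers in the Gpx3 levels was not tested. Gpx3 and Nqo1 had a Pearson r of 0.845, and Gpx3 and Txnrd1 of 0.878.

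**Figure D3:**
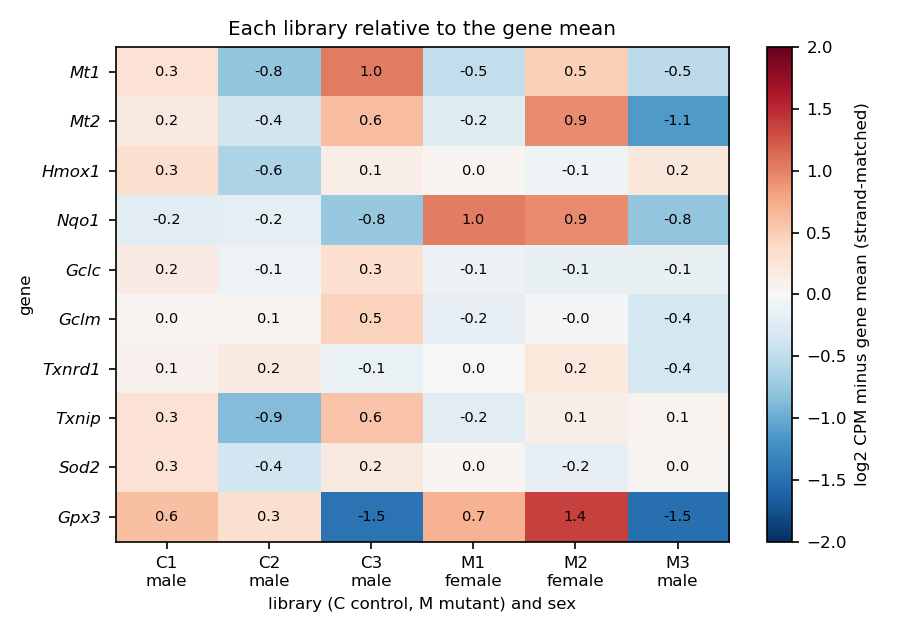
Strand-matched log2 CPM of each gene in each library minus the gene's mean over the 6 libraries (red higher, blue lower; colour scale ends at -2 and 2). C3 and M3 lie at -1.48 and -1.51 in Gpx3, M1 and M2 stand above the mean in Nqo1, and C2 lies below it in Mt1, Hmox1, Txnip and Sod2.

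Levels of different genes were compared per kilobase of exon (GENCODE M21) from strand-matched counts. The length covered all annotated exons of a gene, and the length of the expressed transcripts was not measured. In controls the order of mean levels, in CPM per kb, was Txnip at 170 ± 76.1, Gpx3 at 86.3 ± 50.2, Mt2 at 45.0 ± 14.9, Sod2 at 28.2 ± 6.47, Mt1 at 21.99 ± 12.6, Txnrd1 at 10.5 ± 1.13, Nqo1 at 6.36 ± 1.29, Gclm at 4.10 ± 0.692, Hmox1 at 3.79 ± 1.16 and Gclc at 3.47 ± 0.52 (SD, n = 3). Among the controls the ranges overlapped in 8 of the 9 pairs of neighbours in this order and lay apart between Txnrd1 (9.24 to 11.5 CPM per kb) and Nqo1 (4.88 to 7.19 CPM per kb). Over all 6 libraries that pair overlapped too, through Nqo1 at 16.6 and 15.8 CPM per kb in the female mutants. Per kb, the strand-matched Mt2 level was above that of Mt1 in group means of both controls and mutants (42.1 ± 29.6 and 16.0 ± 6.80 CPM per kb in mutants, SD, n = 3). This rested on the exon lengths, 588 bases for Mt2 and 1246 for Mt1. Before that division the Mt2 to Mt1 ratio ran from 0.706 in mutant 3 to 1.49 in mutant 2. In the deposited matrix Mt2 had a mean of 0.676 CPM per kb in mutants, far below Mt1 at 17.1 CPM per kb.

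**Figure D4:**
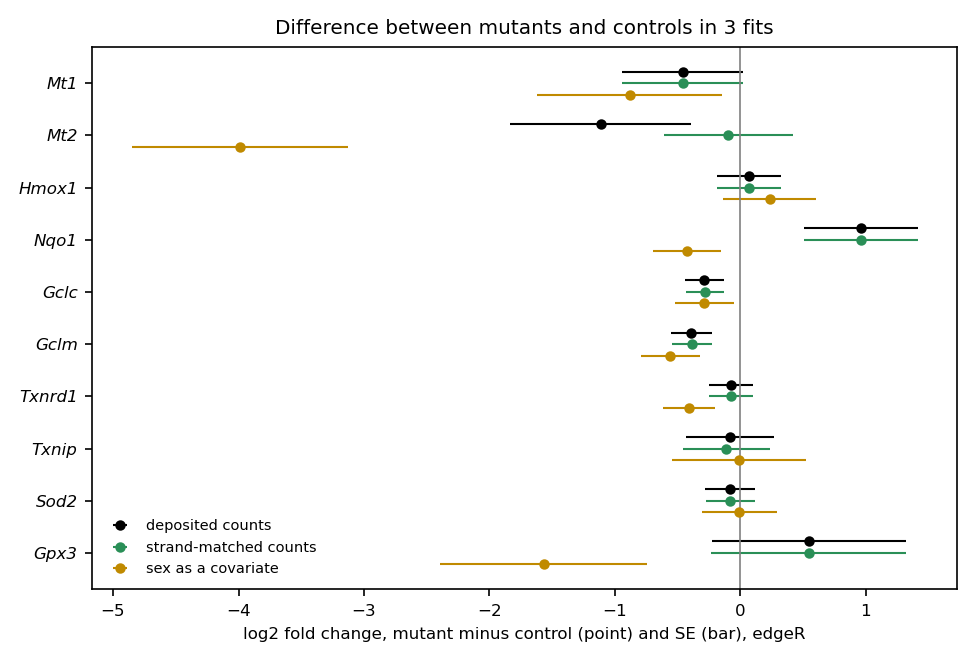
Log2 fold change (mutant minus control) of each gene with its SE in edgeR fits of the deposited counts, of strand-matched counts and of the deposited counts with sex as a covariate. Mt2 moves from -1.11 to -0.10 with strand-matched counts and to -3.99 with sex as a covariate, where Nqo1 and Gpx3 turn to -0.42 and -1.57. With sex as a covariate, each difference rests on mutant 3 against the controls.

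Genes around these 10 were read from 11 lists of 160 genes, of which 154 were tested. None of the 154 was called by edgeR (smallest adjusted p = 0.404). DESeq2 called Slc30a2 and Fkbp5 among the genes named below. At an unadjusted p below 0.05 there were 19 (12.3%), beside 6.94% of all genes. The groups did not overlap in 16 genes with mutants higher (10.4%, all genes 5.97%) and 7 with mutants lower (4.55%, all genes 6.09%). The medians of the lists ran from -0.11 to 0.33. Signs are counted below from the deposited counts, where 7762 of all 15589 genes tested had a positive difference. No list was tested as a set. In each list the 2 genes with the smallest p between these groups are named, a choice that favours ranges lying apart. Where a pair of ranges is given below, the controls come first.

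Among genes of metal sensing and zinc transport, 12 of 22 tested had a positive and 10 a negative log2 difference (median 0.03). Mtf1, the zinc sensor that drives the metallothionein genes, is named outside the rule for named genes, and it stood at 26.0 to 28.4 CPM in controls and 26.5 to 34.7 CPM in mutants. Slc30a2, a zinc exporter into vesicles, measured 64.2, 14.1 and 78.3 CPM among controls against 2.64, 1.76 and 9.26 CPM among mutants, and the log2 difference was -3.51 (SE 0.87, edgeR adjusted p = 0.496; DESeq2 adjusted p = 0.0136). Slc39a8, a zinc and manganese importer, stood at 0.559 to 0.599 CPM and 0.84 to 1.60 CPM (log2 1.17, SE 0.34, edgeR adjusted p = 0.534). Both pairs of ranges lay apart, and the female mutants lay farthest from the controls in each.

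Regulators of NRF2 had 3 of 10 positive differences (median -0.11). Nfe2l2 itself measured 34.8, 35.8 and 30.5 CPM among controls against 47.5, 44.8 and 40.0 CPM among mutants (log2 0.39, SE 0.13, edgeR adjusted p = 0.618), with no overlap. Bach1, a repressor of Hmox1, stood at 30.7 to 41.9 CPM and 26.2 to 31.5 CPM (edgeR adjusted p = 0.787). Of the 19 other NRF2 targets, 11 had positive differences (median 0.09). Srxn1, which repairs over-oxidised peroxiredoxins, measured 40.2, 29.3 and 56.95 CPM among controls against 25.6, 29.4 and 21.2 CPM among mutants (log2 -0.73, SE 0.25, edgeR adjusted p = 0.655). Cbr1, a carbonyl reductase, stood at 15.9 to 18.6 CPM and 19.8 to 24.7 CPM (log2 0.40, SE 0.14). The 2 named targets thus had opposite signs.

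Genes of glutathione synthesis and use had 20 of 29 positive differences (median 0.11). Oplah, which recycles 5-oxoproline to glutamate, stood at 32.1 to 38.9 CPM and 46.6 to 61.6 CPM (log2 0.56, SE 0.15, edgeR adjusted p = 0.497), and Gstt2, a glutathione transferase, at 1.85 to 3.29 CPM and 3.56 to 4.203 CPM. Both ranges lay apart, with mutants higher. Gpx1, the abundant cytosolic glutathione peroxidase, is also named outside that rule, chosen after its values were seen, and was another gene that the deposited matrix nearly lost: it kept 2.07% of the strand-matched read pairs, and its strand-matched levels were 65.9 ± 9.92 CPM in controls and 62.7 ± 3.497 CPM in mutants (SD, n = 3 each).

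Thioredoxins, peroxiredoxins and their helpers had 11 of 17 positive differences (median 0.05). Sesn1, a sestrin known as a stress-induced leucine sensor, measured 20.2, 31.9 and 13.4 CPM among controls against 47.1, 42.6 and 40.8 CPM among mutants (log2 0.99, SE 0.29, edgeR adjusted p = 0.557), and the methionine sulfoxide reductase Msrb2 stood at 8.20 to 18.4 and 16.5 to 21.5 CPM. The relatives of Txnip and the factors that drive it had 4 of 7 positive differences (median 0.17). Among them Mlxipl (ChREBP), known to act through carbohydrate response elements, stood at 44.4 to 54.5 CPM and 59.3 to 79.5 CPM (log2 0.42, SE 0.16, edgeR adjusted p = 0.661), and its partner Mlx at 7.40 to 9.91 and 8.55 to 11.7 CPM. The groups did not overlap in Mlxipl and Sesn1, whereas they did in Txnip. Mlxipl is also a gene of fat cells. The summed level of all 8 adipocyte markers was 169 to 469 CPM in controls and 339 to 490 CPM in mutants, with Plin4 the largest part in every library. All 8 markers had positive differences (median 0.87), none of them being called. Their part in the Mlxipl levels was not tested.

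Superoxide and peroxide removal had 5 of 6 positive differences (median 0.33). Catalase (Cat) measured 77.8, 88.6 and 49.1 CPM among controls against 122, 107 and 97.8 CPM among mutants (log2 0.60, SE 0.23, edgeR adjusted p = 0.677), and the cytosolic Sod1 at 117 to 135 CPM and 99.0 to 113 CPM (log2 -0.26, SE 0.12, edgeR adjusted p = 0.756). Both stood apart between groups, in opposite directions. Haem breakdown and iron storage had 4 of 9 positive differences (median -0.0017), the ferritin heavy chain Fth1 standing at 1520 to 2032 CPM and 1302 to 1442 CPM (log2 -0.35, SE 0.17, edgeR adjusted p = 0.77) and the haem transporter Slc48a1 at 50.5 to 60.7 and 45.7 to 50.8 CPM. Tfrc, the transferrin receptor, likewise lies outside that rule and was chosen after its values were seen. The female mutants had 56.4 and 67.7 CPM, with 581 CPM in the male mutant and 216 to 353 CPM in the controls. Its female minus male difference was -3.23 on the log2 scale (SE 0.34, edgeR adjusted p = 0.112).

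Selenoproteins and factors of their synthesis had 7 of 12 positive differences (median 0.05). Selenoh, a nuclear selenoprotein, stood at 4.71 to 6.37 CPM and 7.97 to 10.04 CPM (log2 0.72, SE 0.18, edgeR adjusted p = 0.469), and Selenop, the plasma selenium carrier, at 98.9 to 122 CPM and 128 to 164 CPM. Both stood apart with mutants higher. Subunits of the NADPH oxidases, with xanthine oxidase, had 5 of 8 positive differences (median 0.24): Ncf4 stood at 0.702 to 1.88 and 0.551 to 1.06 CPM, and Cyba at 4.395 to 7.78 and 5.87 to 10.3 CPM. All 7 neutrophil markers, none of them called, had negative differences, with sums of 10.9 to 30.5 CPM in controls and 3.89 to 11.3 CPM in mutants, and their part in the oxidase levels was not tested. Genes that respond to fasting or to glucocorticoids, which also induce metallothioneins, had 8 of 15 positive differences (median 0.0093). Fkbp5, a chaperone and classical glucocorticoid target, measured 133, 45.8 and 90.9 CPM among controls against 26.5, 31.0 and 34.1 CPM among mutants (log2 -1.56, SE 0.36, edgeR adjusted p = 0.404, and 0.0255 without control 2; DESeq2 adjusted p = 0.00303), while the transcription factor Cebpd stood at 5.64 to 13.6 and 13.9 to 25.7 CPM (log2 1.08, SE 0.37). These 2 targets lay apart between groups in opposite directions.

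**Figure D5:**
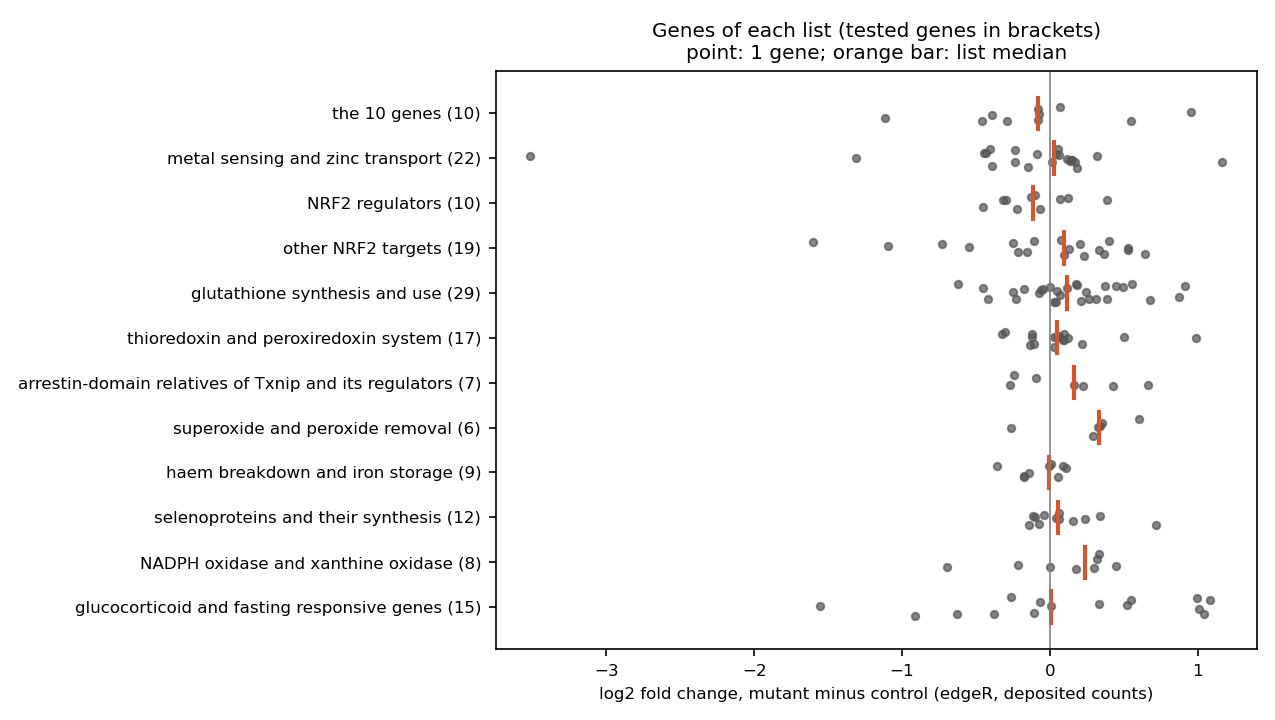
Log2 fold change (mutant minus control, edgeR, deposited counts) of every tested gene of the 10 and of the 11 lists; each point is a gene and each bar a list median. The medians lie between -0.11 and 0.33, and the point farthest from 0 is Slc30a2 at -3.51.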

How the data were processed

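Per the labels' protocols, poly(A)-selected directional libraries of 6 animals were read from both ends, 61 bp each. What the authors deposited is a matrix of unstranded counts and, for each library, counts by strand. The submitters' processing notes name STAR 2.7.11b, DESeq2 1.50.2 and GRCm39, with no annotation release. The matrix equalled the unstranded counts in all 57010 genes. Read pairs that name no gene (18.5% to 22.3% of all pairs) were kept out of library sizes, and 6.93% to 7.49% were ambiguous between genes, against 1.23% to 1.44% in the strand-matched counts. The authors' deposited table gives log2 fold changes, Wald scores, p-values, standard errors and mean normalised signal, of which the values for the 10 genes and the share of genes passing were used.

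Deposited counts were fitted in edgeR 4.0.16 under R 4.3.3: TMM, filterByExpr (minimum count 10), a robust quasi-likelihood test of genotype without covariates, and Benjamini-Hochberg adjustment over all genes, calling those below 0.05. Means are given with SD over animals. Likeness is Pearson's r of log2(CPM + 1). The genes named as most like another had the highest r of all genes compared. That choice favours values near 1, so they are given as a description. Symbols matched 15338 of the 15589 genes tested. Exon lengths and overlaps came from GENCODE M21, built on GRCm38, since the files' own annotation was not given; plots used matplotlib 3.10.9. On simulated counts for 15589 genes of this comparison, 25.4% of 67 genes changed 2-fold, 83.6% of 67 at 4-fold and 98.5% of 66 at 8-fold were called. The changed genes were drawn from those with a mean above 1 CPM, which Mt2 in the deposited matrix did not reach. No sex difference was simulated.

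Alternatives were RLE and upper quartile normalisation, DESeq2 1.42.0, limma-voom (limma 3.58.1), other filters, sex as a covariate, males only, the replicate number as a block, strand-matched counts and each library left out. Strand-matched counts with sex, and leaving out replicate 3 of both groups, were chosen after seeing the data. The genes and lists were chosen with earlier results of these data known. The rule named the 10 genes, Dysf, the 2 genes with the smallest p in each list and any called one, and, for 5 of the 10, the 3 genes most like each whose 6-library mean reached 1 CPM. Mtf1, Gpx1 and Tfrc are named outside it.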

Additional observations from a re-analysis of the deposited data

How the results depend on the processing

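Under all 18 alternatives 0 of the 10 genes were called (of 9 with the filter of 1 CPM in 3 libraries, which removed Mt2). The number of genes called among all tested was 31; it was 79 with no filter, 184 with DESeq2, 0 with sex as a covariate (882 at an unadjusted p below 0.05), 0 in males only (594) and 0 with strand-matched counts and sex (889), and from 6 (without mutant 2) to 49 (without control 2) when 1 library was left out. With the replicate number as a block 11 were called. Same-numbered libraries had deviations correlated at 0.251, -0.0561 and 0.234 for numbers 1, 2 and 3. Controls 1 and 3 correlated best with the mutant of the same number, and control 2 with mutant 3 (0.0705). Whether same-numbered animals share more than a number was not tested. The sign turned for Nqo1 to -0.42 with sex as a covariate, in males only, and with strand-matched counts and sex; for Gpx3 to -1.57, -1.56 and -1.57 under these; for Mlx to -0.019, -0.016 and -0.11; for Txnip to 0.030 under the block and 0.035 in limma-voom; and without replicate 3 of both groups to 0.22 for Mt1 and 0.18 for Txnip. The males-only fits rest on 1 mutant, assumed to vary like the controls. With sex as a covariate the difference rests on the same mutant, so these fits are not separate checks. With 1 library left out, log2 fold changes ran from -0.86 to 0.05 for Mt1, -0.16 to 0.25 for Hmox1, -0.21 to 0.064 for Txnrd1, -0.41 to 0.21 for Txnip, -0.26 to 0.043 for Sod2 and -0.071 to 1.01 for Gpx3. The cause of these changes was not tested. Mt2 ran from -3.99 in males only, on 2 to 46 deposited counts, to -0.10 with strand-matched counts, on 440 to 1707. Slc30a2 passed in DESeq2, and Fkbp5 in DESeq2 and without control 2.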

Other observations

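Mt2 and Gpx1 were 2 of the 11 genes that passed the filter on deposited counts but kept under 10% of their strand-matched read pairs there. The others were Cox20, Dedd, Ube2c, Tnnc2, Gnas, Ikzf5, Nr2c2ap, Tagln and Abi3. Tnnc2, the fast skeletal troponin C and a major transcript of this muscle, had 205 read pairs over the 6 libraries in the matrix and 2292290 on its own strand. Tagln, an actin-binding protein of smooth muscle, had 67 and 14380, and its log2 fold change was 1.04 with deposited and 0.36 with strand-matched counts (edgeR adjusted p = 0.741 and 0.886). None of the 11 was called by edgeR with either way of counting.

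Besides Gpx3, the genes with replicate 3 of both groups at least 3-fold below each other library were Fetub, Cyp4f39 and Ighg2c. Cyp4f39, a fatty acid hydroxylase, stood at 0.203 and 0.356 CPM in control 3 and mutant 3 and at 2.67 to 4.82 CPM in the other 4 libraries. In the opposite direction there were 24 genes (0.154%).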
